A study of Rattus norvegicus with 44 samples.

Results

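The genes described here encode molecular chaperones of the rat liver: the heat shock proteins, their J protein partners, the subunits of the cytosolic chaperonin CCT, and the folding factors of the endoplasmic reticulum (ER). Members were the probe sets annotated with 1 gene symbol that starts with Hsp followed by a, b, d, e, h, 9 or 1, with Dnaj, with Cct and a digit, or with Pdia, together with Calr, Canx and Hyou1. The rule found 35 of the 4741 genes that have a probe set of their own, on 68 of 8740 probe sets. By textbook location, 18 genes are cytosolic or nuclear, 13 act in the ER and 4 in mitochondria. A further 10 probe sets are annotated with several symbols and were left out. Among them are all those naming Hspa8 or Hsp90aa1, and several naming both Hspa1a and Hspa1b.

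The data are Affymetrix intensities on 44 arrays of liver RNA from male Wistar rats, 8 weeks old, dosed by gavage once a day and killed 24 h after the last dose. R1 and R2 are compounds known only by these code names, and citric acid buffer was the vehicle. Study 1 (24 h) held 3 vehicle arrays and R1 at 10 (4 arrays), 30 (3) and 100 (3) mg/kg/day, and study 4 (24 h) held 4 vehicle arrays and R2 at 300 mg/kg/day (5). Study 2 (336 h) held 4 vehicle arrays and R1 at 20 (5) and 100 (4) mg/kg/day, and study 3 (336 h) held 5 vehicle arrays and R1 at 30 mg/kg/day (4). Replicates carry only a number, and nothing says that each came from a separate rat. P-values then cover the spread between arrays, which may be technical. A liver slice holds many cell types. In such tissue, fewer cells of a type and less RNA per cell cannot be told apart.

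All 9 hepatocyte markers on the array were bright (mean intensity 722 to 12008), against an array median of 14.5. Replicates 1 and 2 of the R2 group lay apart from the others on the fourth principal component of the 6361 tested probe sets, at 34.8 and 36.0, whereas R2 replicates 3 to 5 lay between 8.68 and 14.4 and the other 39 arrays between -30.6 and 17.7. R2 values that a statement turns on, the R2 counts and the R2 medians are therefore also given without these 2 arrays. The log2 difference between the 3′ and 5′ probe sets of the beta-actin control, a measure of RNA integrity, was 1.52 ± 0.36 (SD, n = 3) in study 1 vehicle and 0.83 to 0.95 in its treated groups. It was 1.35 ± 0.27 (n = 4) in study 2 vehicle against 0.83 and 1.00, 1.02 ± 0.26 (n = 5) in study 3 vehicle against 0.74, and 1.21 ± 0.49 (n = 4) in study 4 vehicle against 1.11. It was higher in the vehicle arrays of every study on average, but the same difference for GAPDH was not (0.37 against 0.45 in study 3 and 0.29 against 0.47 in study 4). The part of either in the results below was not tested.

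Chaperones bind unfolded proteins and help them reach or keep their native shape. In the cytosol, HSP70 proteins cycle with J proteins and HSP110 exchange factors and pass clients on to HSP90, and small heat shock proteins hold unfolded proteins without using ATP. Heat and other proteotoxic stress raise these genes through heat shock factor 1, which binds the heat shock element. In the ER, BiP (Hspa5), GRP94 (Hsp90b1), the calnexin cycle and the protein disulfide isomerases fold secreted proteins, which the hepatocyte makes in large amounts, and the unfolded protein response raises them through the ER stress response element. Mitochondria have their own HSP70 and the HSP60 and HSP10 chaperonin pair.

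The promoters below show, in capitals, the letters by which these 2 regulatory programs are usually recognised. Cytosolic and ER members are described apart by textbook location, not by these letters. RefSeq promoter windows (GRCr8, 250 bases before to 50 after each start) were found for 31 of the 35 genes. On both strands, the heat shock element was searched as GAA, any 2 bases, TTC, any 2 bases and GAA, the ER stress response element as CCAAT, any 9 bases and CCACG, and its second form as ATTGG, any 1 base and CCACG. The first motif is held by 0.798% of all 33469 windows, the second by 0.0657% and the third by 0.0508%. Among the 11 ER genes with a window, 4 held the ER stress response element (Hspa5, Hsp90b1, Calr, Canx), Hyou1 held its second form and 0 held the heat shock element. Among the 16 cytosolic genes, Hsph1 and Dnaja1 held the heat shock element, and so did Hspd1 and Hspe1 of the 4 mitochondrial genes. The full letters were not in the windows of Hsp90ab1, Dnajb1, Hspb1 or Hspa1a, and a match is a description of letters only. Printed windows end at or before the start. They lie at chr3:38452943-38453015, plus strand (Hspa5), chr7:23012317-23012499, minus strand (Hsp90b1), chr19:40213117-40213183, plus strand (Calr), chr10:35158039-35158107, minus strand (Canx), chr8:53602664-53602834, plus strand (Hyou1), chr12:10427302-10427367, plus strand (Hsph1) and chr9:64084232-64084309, plus strand (Hspe1).
Hspa5: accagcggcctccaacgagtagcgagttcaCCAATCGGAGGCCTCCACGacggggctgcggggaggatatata
Hsp90b1: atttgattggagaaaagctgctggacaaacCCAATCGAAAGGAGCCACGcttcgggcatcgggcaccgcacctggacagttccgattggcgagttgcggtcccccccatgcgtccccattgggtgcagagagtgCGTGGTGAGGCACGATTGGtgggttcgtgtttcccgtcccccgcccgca
Calr: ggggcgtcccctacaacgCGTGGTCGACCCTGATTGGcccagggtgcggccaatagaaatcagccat
Canx: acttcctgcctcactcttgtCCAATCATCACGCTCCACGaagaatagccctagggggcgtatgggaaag
Hyou1: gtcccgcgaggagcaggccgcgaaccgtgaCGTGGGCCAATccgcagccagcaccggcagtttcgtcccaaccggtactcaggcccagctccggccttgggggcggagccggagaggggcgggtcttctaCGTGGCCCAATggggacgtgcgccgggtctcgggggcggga
Hsph1: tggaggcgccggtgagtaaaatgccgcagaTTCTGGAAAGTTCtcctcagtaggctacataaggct
Hspe1: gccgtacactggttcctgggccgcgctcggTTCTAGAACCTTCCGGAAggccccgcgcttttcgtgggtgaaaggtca
Hspd1 and Hspe1 lie head to head, so the 2 overlapping matches at chr9:64084262-64084279 are counted in the windows of both. Hyou1 and Hsp90b1 each held 2 matches.

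Of the 35 genes, 31 were tested: 16 cytosolic, 11 ER and 4 mitochondrial. Hspa2, Hspa1l, Dnajb14 and Pdia2 stayed below the intensity needed in every group. A gene is represented by its brightest probe set. Fold changes are differences of log2(intensity + 2.89) and are given with their SE. They understate the change of dim genes. P-values are limma's, adjusted over all 6361 tested probe sets, and a gene is called at an adjusted p under 0.05.

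Hsp90ab1, the constitutive cytosolic HSP90, was the member called most often. It rose with R1 at 30 and 100 mg/kg/day after 24 h, with R1 at 30 mg/kg/day after 336 h and with R2. In study 1 its intensity was 1442, 1139 and 1258 in the vehicle arrays, 2099, 2397, 2397 and 1233 at 10, 2087, 2482 and 2067 at 30 and 2674, 2277 and 2197 at 100 mg/kg/day. All arrays at the 2 higher doses lay above all vehicle arrays, and 1 of 4 at the lowest dose did not. The log2 fold change was 0.90 ± 0.22 (adjusted p = 0.00607) at 100 mg/kg/day, 0.79 ± 0.22 (adjusted p = 0.0475) at 30 and 0.62 ± 0.20 (adjusted p = 0.185) at 10. The 3 doses share these vehicle arrays. The call at 30 mg/kg/day was lost without any 1 of its 6 arrays (adjusted p up to 0.242). It was also lost without the filter, without the variance trend, with study 1 fitted alone, with the replicate block (adjusted p = 0.0628) and as a mean of probe sets (0.42, adjusted p = 0.339). Without replicate 4 the change at 10 mg/kg/day was called (adjusted p = 0.0144).

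In study 4 Hsp90ab1 was 2385, 1347, 1284 and 1289 in the vehicle arrays and 2505, 2653, 2569, 2828 and 2569 with R2, so the lowest R2 array was above the highest vehicle array. The log2 fold change was 0.79 ± 0.18 (adjusted p = 0.00136), and 0.80 (adjusted p = 0.00711) without R2 replicates 1 and 2. In study 3 it was 1307, 1296, 1225, 1452 and 1132 in the vehicle arrays and 1816, 1649.7, 2790.3 and 1793 with R1 at 30 mg/kg/day, again with no overlap, a log2 fold change of 0.62 ± 0.18 (adjusted p = 0.0167). Replicate 3 was the highest of these arrays: without it the change was 0.45 (adjusted p = 0.154), and as a mean of the gene's probe sets it was 0.42 (adjusted p = 0.0551). Study 2 gave no call: the vehicle arrays read 1617, 1628, 1916 and 1874, those at 20 mg/kg/day 1365, 1143, 1841, 1841 and 1738, and those at 100 mg/kg/day 1116, 1063, 1279 and 1649.7. Here the log2 fold change at 100 mg/kg/day was -0.48 ± 0.19 (adjusted p = 0.111), and it was called lower as a mean of probe sets (-0.49, adjusted p = 0.0312) and without treated replicate 4 (-0.61, adjusted p = 0.0443). The gene has 3 more probe sets, of which 2 were also called with R1 at 100 mg/kg/day after 24 h (0.75 and 0.78) and with R2 (0.80 and 0.87), while the last read 0.51 and 0.39 with no call.

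Dnajb1 encodes HSP40, the J protein that delivers clients to cytosolic HSP70. It rose in the high-dose groups after 24 h. In study 1 it read 75.2, 81.3 and 72.9 in the vehicle arrays, 43.2, 45.0, 73.1 and 81.1 at 10, 119, 56.1 and 127 at 30 and 212, 172 and 168 at 100 mg/kg/day. Only the highest dose stood clear of the vehicle arrays, with a log2 fold change of 1.23 ± 0.36 (adjusted p = 0.0266). Leaving out any 1 of its 6 arrays ended this call, although the estimate stayed between 1.13 and 1.29 (adjusted p from 0.0504 to 0.119). A second probe set of the gene was also called (0.86, adjusted p = 0.0167). With R2 the arrays read 147, 134, 65.8, 136 and 131 against 44.4, 59.8, 74.3 and 54.1 in the vehicle, and 1 R2 array fell among the vehicle arrays. The log2 fold change was 1.01 ± 0.30 (adjusted p = 0.0134), and without R2 replicates 1 and 2 it was 0.85 (adjusted p = 0.112). Without vehicle replicate 1 it was 0.90 (adjusted p = 0.0582). No change passed the test at 336 h, where Dnajb1 read -0.51 at 20 and -0.58 at 100 mg/kg/day in study 2 and -0.02 in study 3.

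Dnaja1, another J protein partner of HSP70, gave no call against vehicle. Its log2 fold change was 0.56 ± 0.23 (adjusted p = 0.157) with R1 at 100 mg/kg/day after 24 h, where the arrays ran from 271 to 652 against 258 to 279 in the vehicle. After 336 h it was -0.51 ± 0.20 (adjusted p = 0.095), with 289 to 562 against 514 to 632. The first was called without treated replicate 2 (0.84, adjusted p = 0.0280), and the second as a mean of probe sets (-0.68, adjusted p = 0.0477) and without treated replicate 4 (-0.68, adjusted p = 0.0249). Dnaja4, a J protein of the same type, is dim. It fell with R1 at 100 mg/kg/day after 336 h, from 29.1, 26.0, 23.9 and 32.8 in the vehicle arrays to 20.1, 18.0, 17.7 and 5.06, a log2 fold change of -0.87 ± 0.24 (adjusted p = 0.0113) with no overlap. Replicate 4 is the lowest of these, and without it the value was -0.52 (adjusted p = 0.149). The call was also lost with study 2 fitted alone (adjusted p = 0.0821) and as a mean of probe sets (-0.63, adjusted p = 0.0893).

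Hspb1 encodes HSP27, a small heat shock protein. Its rises were the largest among member genes called against vehicle, with R2 and with R1 at 30 mg/kg/day after 336 h. In study 4 it read 34.3, 78.9, 53.2 and 62.7 in the vehicle arrays and 199.7, 237, 89.9, 119.5 and 184 with R2, with no overlap and a log2 fold change of 1.46 ± 0.33 (adjusted p = 0.00114). Without R2 replicates 1 and 2 it was 1.15 (adjusted p = 0.0363). In study 3 it read 37.2, 44.2, 29.4, 51.3 and 44.2 in the vehicle arrays and 121, 88.7, 122 and 115 with R1, again with no overlap, a log2 fold change of 1.39 ± 0.33 (adjusted p = 0.00276). In study 1 the vehicle arrays read 49.5, 24.3 and 33.4 and the treated groups averaged 78.4 ± 27.7 (SD, n = 4) at 10, 62.8 ± 14.2 (n = 3) at 30 and 83.2 ± 18.6 (n = 3) at 100 mg/kg/day. None of these passed the test (1.05, 0.80 and 1.18, adjusted p = 0.254, 0.485 and 0.0674). The highest dose was called with a stricter filter, with study 1 fitted alone and with array weights (adjusted p = 0.0496, 0.0327 and 0.0152).

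In study 2 the estimate for Hspb1 was below 0 at the higher dose. The vehicle arrays read 196, 152, 522 and 128, those at 20 mg/kg/day 326, 167, 138, 303 and 244, and those at 100 mg/kg/day 161, 51.6, 116 and 118. The groups overlap, and the log2 fold change was -1.01 ± 0.35 (adjusted p = 0.0539) at 100 and 0.08 at 20 mg/kg/day. The value at 100 was called lower with a larger offset, a stricter filter, a mean of probe sets, or without vehicle replicate 2, vehicle replicate 4 or treated replicate 1 (adjusted p from 0.0209 to 0.0469). Hspb1 has 4 probe sets that disagree. One (M86389cds_s_at) was called with R1 at 10 (1.49) and 100 mg/kg/day after 24 h (1.17). With R2 the 3 other sets read 0.77, -0.46 and 0.24 without a call, and the mean of all 4 was 0.50 (adjusted p = 0.140). In study 3 that mean was 0.66 (adjusted p = 0.0530).

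The inducible HSP70 gene Hspa1a was near the bottom of the intensity scale on the only probe set of its own. That probe set can share signal with the near-identical Hspa1b. The probe sets annotated with both genes were left out, so the values here rest on this probe set alone. It fell with R1 at 100 mg/kg/day after 336 h, from 11.6, 72.0, 33.2 and 21.2 in the vehicle arrays to 1.04, 0.883, 2.04 and 9.12, with no overlap and a log2 fold change of -2.52 ± 0.51 (adjusted p = 0.000343). At 20 mg/kg/day it read 13.7, 2.04, 14.2, 20.6 and 11.7 (-1.19 ± 0.48, adjusted p = 0.188). The study 2 vehicle arrays were the brightest of any group for this gene. Vehicle arrays of the other studies ran from 1.57 to 8.61 in study 1, 1.13 to 10.4 in study 4 and 0.899 to 1.62 in study 3, all below the lowest vehicle array of study 2. The mean log2 level of the 11 immediate early genes tested, which respond within minutes to handling and stress, was also highest in study 2 vehicle, at 6.15 ± 0.26 (SD, n = 4). Their mean was 5.05 ± 0.11 (n = 5) at 20 and 5.81 ± 0.53 (n = 4) at 100 mg/kg/day, and their part in the Hspa1a result was not tested.

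Hsph1 encodes HSP110, the exchange factor of HSP70. Its representative probe set gave no call against vehicle. It read 92.2, 93.7 and 54.1 in study 1 vehicle and 210.5, 81.3 and 139.8 at 100 mg/kg/day (0.76 ± 0.41, adjusted p = 0.342), while its second probe set was called there at 1.33 (adjusted p = 0.00619), as was the mean of both, at 1.05 (adjusted p = 0.0126). With R2 it read 164, 141, 47.7, 169 and 133 against 78.7, 76.1, 61.4 and 64.6, so 4 of 5 R2 arrays were above all vehicle arrays and the fifth, replicate 3, was below them (0.76 ± 0.33, adjusted p = 0.121). Without that array the rise was 1.08 (adjusted p = 0.0143), with array weights 0.88 (adjusted p = 0.0277) and as a mean of both probe sets 0.66 (adjusted p = 0.0404), whereas without R2 replicates 1 and 2 it was 0.54 (adjusted p = 0.476). After 336 h at 100 mg/kg/day the value was -0.95 ± 0.35 (adjusted p = 0.0803), with arrays at 25.6, 94.7, 115 and 164 against 175, 157, 134 and 193 in the vehicle, and -1.27 (adjusted p = 0.0164) without replicate 4 of the treated group.

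Of the CCT chaperonin, which folds actin and tubulin, 2 subunit genes were measured. Cct3 rose with R2, from 133, 103, 88.3 and 101 to 212, 182, 239, 165 and 149, a log2 fold change of 0.81 ± 0.20 (adjusted p = 0.00384) with no overlap, and 0.76 (adjusted p = 0.0278) without R2 replicates 1 and 2. The other 6 treated groups gave Cct3 values between -0.32 and 0.42 without a call. Cct6a rose with R1 at 30 mg/kg/day after 336 h, from 124, 136, 98.0, 127 and 109.6 to 141, 269.9, 245 and 178 (0.76 ± 0.26, adjusted p = 0.0457). This call was lost when 8 of the 9 arrays were left out in turn (adjusted p from 0.0527 to 0.166). It was also lost without the filter, without the variance trend and with the replicate block (0.68, adjusted p = 0.0749). With R2 Cct6a read 0.48 ± 0.26 (adjusted p = 0.225), and 0.51 (adjusted p = 0.337) without R2 replicates 1 and 2.

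**Figure D1:**
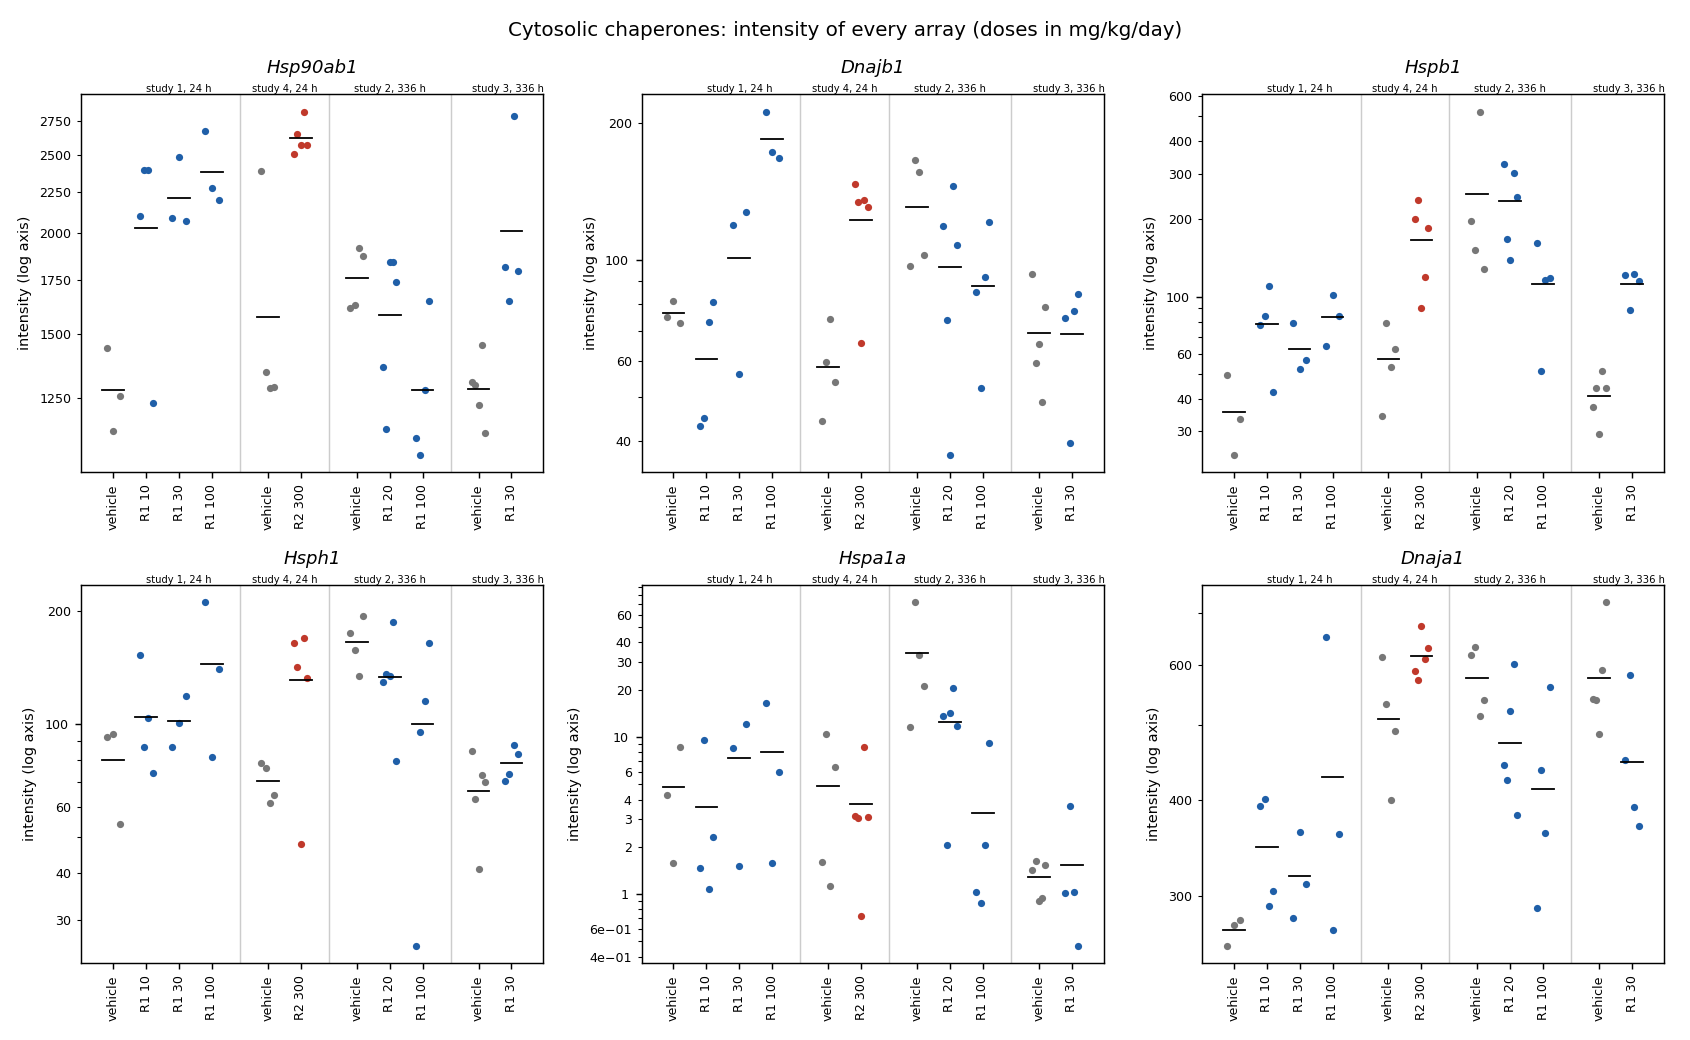
Intensity of 6 cytosolic chaperone genes on each of the 44 arrays (log axis, arbitrary units), by study, compound and dose in mg/kg/day. Grey points are vehicle, blue R1 and red R2, and bars are group means. All 5 R2 arrays of Hsp90ab1 and Hspb1 lie above their vehicle arrays, and the 3 Dnajb1 arrays of R1 at 100 mg/kg/day after 24 h lie at 168 to 212 against 72.9 to 81.3 in their vehicle.

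Of the mitochondrial members, both genes of the chaperonin pair were called, in different comparisons. Hspd1, which encodes HSP60, rose with R1 at 30 mg/kg/day after 336 h, and Hspe1, which encodes its lid HSP10, fell with R2. Hspd1 read 1007, 934, 1001, 639 and 708 in study 3 vehicle and 1808, 1028, 1949 and 1709.7 with R1, with no overlap and a log2 fold change of 0.90 ± 0.22 (adjusted p = 0.00318). Its second probe set gave 0.90 (adjusted p = 0.0457). Hspe1 on the same arrays was 1235 ± 147 (SD, n = 5) and 1254 ± 42.3 (n = 4), a log2 fold change of 0.03 ± 0.21 (adjusted p = 0.968). The head-to-head promoter shown above is shared by both genes.

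With R2, Hspe1 read 295, 251, 531, 850.2 and 856 against 1045, 1059.9, 951 and 1034 in the vehicle arrays. All R2 arrays were lower, and replicates 1 and 2 lay furthest down. The log2 fold change was -1.05 ± 0.21 (adjusted p = 0.000331). Without replicates 1 and 2 it was -0.49 (adjusted p = 0.0431), and with study 4 fitted alone the adjusted p was 0.0586. A second probe set of the gene gave -0.33 (adjusted p = 0.11). Hspd1 gave -0.10 ± 0.22 (adjusted p = 0.825). Hspa9, the mitochondrial HSP70, gave no call against vehicle, with values of 0.92 ± 0.35 (adjusted p = 0.116) for R1 at 100 mg/kg/day after 24 h and 0.72 ± 0.29 (adjusted p = 0.104) for R1 at 30 mg/kg/day after 336 h.

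**Figure D2:**
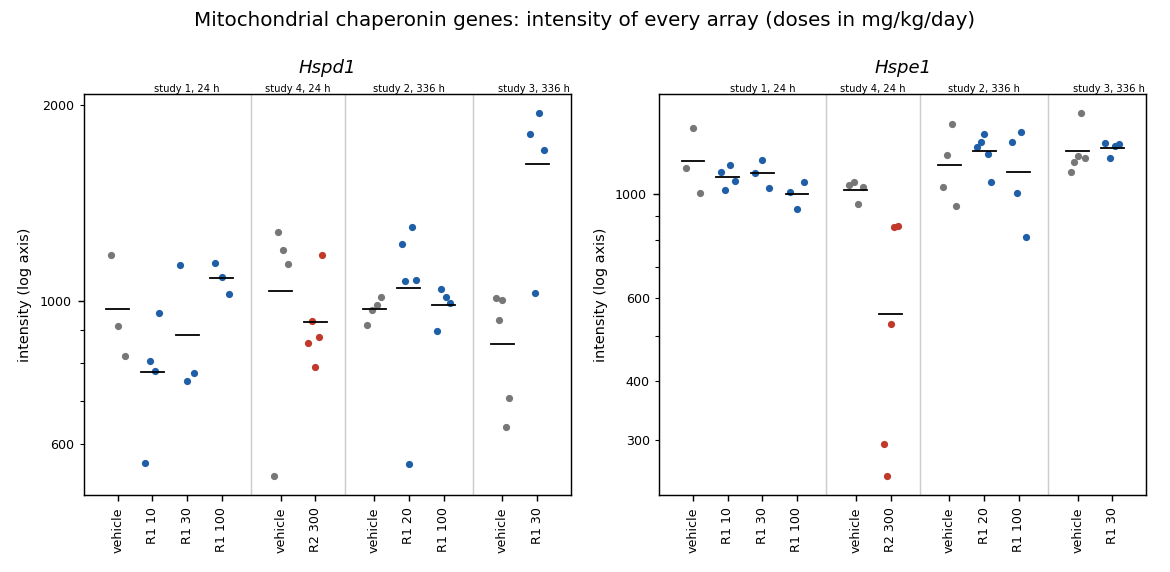
Intensity of Hspd1 and Hspe1 on each of the 44 arrays (log axis, arbitrary units), by study, compound and dose in mg/kg/day, with group means as bars. Hspe1 with R2 ranges from 251 to 856, below the lowest vehicle array of study 4 at 951, and Hspd1 with R1 at 30 mg/kg/day after 336 h ranges from 1028 to 1949.

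By its representative probe set, no ER member passed the test for a rise against vehicle in any of the 7 comparisons, and the 3 that fell did so with R2. Several other ER values lay close to the threshold on either side of 0, and other settings called them, as given with each gene. Hyou1 encodes ORP150, the ER member of the HSP110 family. It read 232, 125, 155 and 115 in study 4 vehicle and 76.2, 72.6, 67.0, 82.1 and 74.8 with R2, with no overlap and a log2 fold change of -0.99 ± 0.30 (adjusted p = 0.0178). Its second probe set was also called (-0.79, adjusted p = 0.0373). Without vehicle replicate 1, the highest array, the change was -0.79 (adjusted p = 0.104). Without R2 replicates 1 and 2 it was -0.99 (adjusted p = 0.0626). With R1 the Hyou1 estimate was -0.33, -0.66 and -0.90 at 10, 30 and 100 mg/kg/day after 24 h and -0.84 at 30 mg/kg/day after 336 h, none of them called (adjusted p = 0.824, 0.565, 0.159 and 0.0656). The value at 100 mg/kg/day was called with array weights (-1.31, adjusted p = 0.00604) and without replicate 1 of that group (-1.41, adjusted p = 0.0193). The value after 336 h was called with a stricter filter, with study 3 fitted alone, as a mean of probe sets and without treated replicate 2 (adjusted p = 0.0491, 0.0258, 0.0389 and 0.0231).

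Hspa5 encodes BiP, the ER HSP70 and the usual marker of ER stress, and it gave no call. In study 1 it read 937, 727 and 602 in the vehicle arrays, 398, 439, 542 and 417 at 10, 562, 281 and 461 at 30 and 628, 429 and 576 at 100 mg/kg/day. All arrays at 10 and 30 mg/kg/day lay below the vehicle arrays, with log2 fold changes of -0.73 ± 0.23 (adjusted p = 0.133) and -0.83 ± 0.25 (adjusted p = 0.0749), and -0.47 ± 0.25 (adjusted p = 0.335) at 100. Without replicate 1 of that group the change at 30 mg/kg/day was -1.04 (adjusted p = 0.0308), and with array weights -0.80 (adjusted p = 0.0391). At 10 mg/kg/day array weights gave -0.73 (adjusted p = 0.0419). With R2 Hspa5 read 542 ± 137 (SD, n = 5) against 634 ± 72.8 (n = 4), a log2 fold change of -0.26 ± 0.20 (adjusted p = 0.431), and -0.46 (adjusted p = 0.226) without R2 replicates 1 and 2. In study 2 it differed from vehicle by -0.11 and 0.08 and in study 3 by -0.46. Hsp90b1, the ER HSP90, gave values from -0.44 to 0.07 over the 7 groups with no call. Its R2 arrays read 788, 671, 296, 415 and 334 against 616, 441, 446 and 314 in the vehicle. The R2 estimate turned from 0.07 to -0.35 (adjusted p = 0.470) without R2 replicates 1 and 2. Other probe sets differ. For Hsp90b1, AA685903_at read 89.6, 90.45, 138, 220 and 186 with R2 against 138, 234, 236 and 239, so replicates 1 and 2 were lowest there. The last set (S69315_at) read 336, 303, 169, 203 and 171 against 304, 193, 228 and 208. For Hspa5, S63521_i_at read 127, 86.3, 121, 161 and 184 with R2 against 205, 248, 219 and 168.

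The lectin chaperones Calr and Canx hold glycoproteins in the ER and gave no call by their representative probe sets. Calr in study 1 read 1786, 1457 and 1666 in the vehicle arrays and 1007, 834 and 1135 at 100 mg/kg/day, with no overlap, and missed the threshold (-0.73 ± 0.23, adjusted p = 0.0509). It was called there with a larger offset, a stricter intensity filter, array weights or the replicate block, and the lowest adjusted p of these was 0.0269. With R2 it was -0.48 ± 0.19 (adjusted p = 0.0841), and -0.32 (adjusted p = 0.437) without R2 replicates 1 and 2. It was called there with the replicate block (-0.52, adjusted p = 0.0443) and without vehicle replicate 4 (-0.63, adjusted p = 0.0322). At 30 mg/kg/day after 336 h the representative set gave 0.12 ± 0.19 (adjusted p = 0.812), whereas another set (X53363cds_s_at) was called lower, at -0.68 (adjusted p = 0.0363). Canx, the membrane-bound partner, ranged from -0.51 to 0.20 over the 7 groups, and its 5 tested probe sets differed by up to 0.64 in R1 at 100 mg/kg/day after 24 h.

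The disulfide isomerases form and exchange disulfide bonds in secreted proteins. Pdia3 (ERp57), which works with the lectin chaperones, fell with R2, from 1028, 753, 856 and 636 to 493, 727, 471, 626 and 515, and the groups overlap (-0.53 ± 0.19, adjusted p = 0.0465). Its second probe set was called at -1.01 (adjusted p = 0.000499). Pdia6 fell with R2 from 892, 643, 753 and 499.9 to 524, 559, 384, 543 and 494, also with overlap (-0.45 ± 0.16, adjusted p = 0.0473). Both calls lie close to the threshold. They were lost without the filter, without the variance trend, with study 4 fitted alone, with array weights, with the replicate block (adjusted p = 0.0634 for each) and with cyclic loess (-0.44 and -0.37, adjusted p = 0.113 and 0.122). They were also lost in 6 of the 9 fits that left out 1 array (adjusted p up to 0.221), and without R2 replicates 1 and 2 they were -0.59 (adjusted p = 0.0605) and -0.54 (adjusted p = 0.0517). With R1 at 100 mg/kg/day after 336 h the Pdia6 estimate was above 0, at 324, 459.7, 537 and 679.9 against 312, 334, 395 and 334 in the vehicle (0.49 ± 0.17, adjusted p = 0.0537), with 1 treated array among the vehicle arrays. That value was called higher with a stricter filter (adjusted p = 0.0415), cyclic loess (0.52, adjusted p = 0.0408), array weights (0.54, adjusted p = 0.0197), a mean of probe sets (adjusted p = 0.0492), without vehicle replicate 3 (0.56, adjusted p = 0.0445) and without treated replicate 1 (0.68, adjusted p = 0.00399). Without that last array Pdia3 was also called higher, at 0.66 (adjusted p = 0.0193), against 0.43 ± 0.20 (adjusted p = 0.179) with it. At 30 mg/kg/day after 336 h Pdia3 was -0.46 ± 0.19 (adjusted p = 0.106), and it was called lower with array weights (-0.50, adjusted p = 0.0332) and as a mean of probe sets (-0.45, adjusted p = 0.0277). Pdia4 (ERp72) read 168, 124 and 153 in study 1 vehicle, 316, 311, 275 and 234 at 10 and 363, 229 and 208 at 100 mg/kg/day, above all vehicle arrays at both doses but not called (0.93 ± 0.27, adjusted p = 0.0734 and 0.80 ± 0.28, adjusted p = 0.0846). With each study fitted alone both were called (adjusted p = 0.0364 and 0.0394), and with array weights the lower dose was (adjusted p = 0.0330). After 336 h at 100 mg/kg/day Pdia4 was -0.55 ± 0.25 (adjusted p = 0.172), and -0.76 (adjusted p = 0.0490) without replicate 2 of that group. With R2 all Pdia4 arrays were below the vehicle arrays (-0.45 ± 0.23, adjusted p = 0.205), and without R2 replicates 1 and 2 the value was -0.49 (adjusted p = 0.313).

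**Figure D3:**
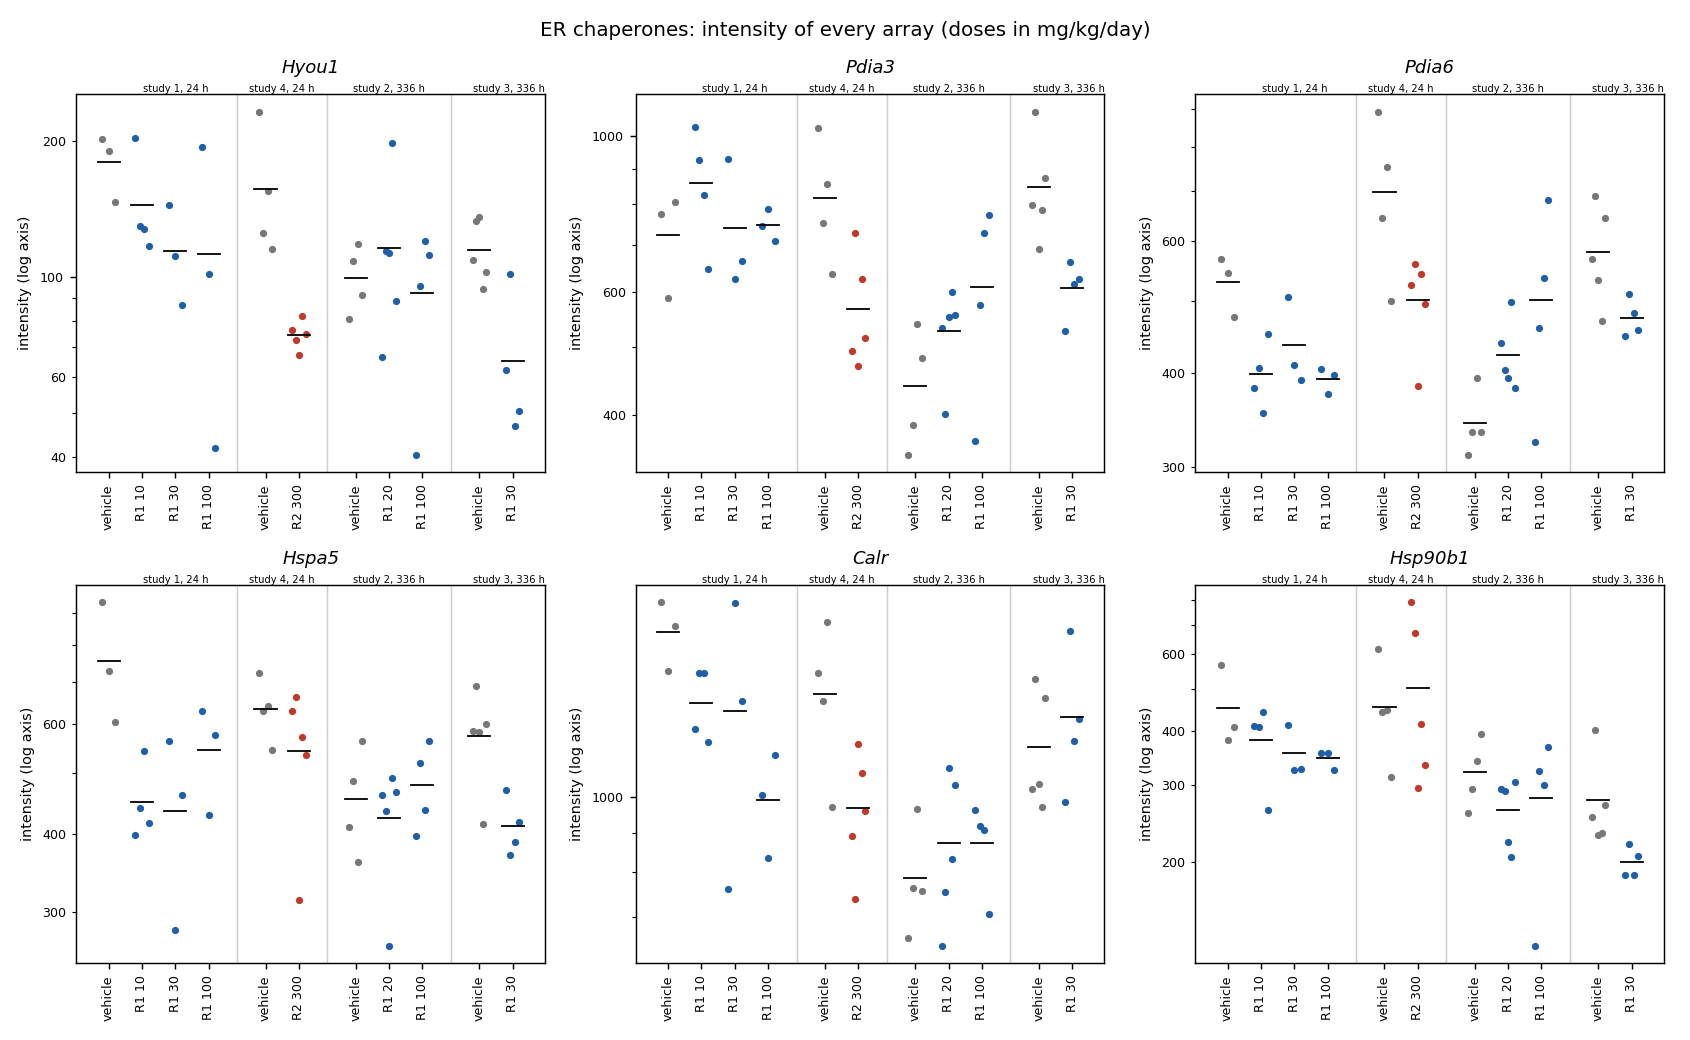
Intensity of 6 ER chaperone genes on each of the 44 arrays (log axis, arbitrary units), by study, compound and dose in mg/kg/day, with group means as bars. The R2 arrays of Hyou1 lie between 67.0 and 82.1 against 115 to 232 in their vehicle, while the R2 arrays of Hspa5 and Hsp90b1 overlap theirs.

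Counted by gene, the called members were few at most doses. With R1 after 24 h, 0 of 31 genes were called at 10 mg/kg/day (1.03% of all 3699 tested genes). At 30 mg/kg/day 1 rose (1.14% of all genes higher, 1.32% in either direction), and at 100 mg/kg/day 2 rose, against 3.19% of all genes called higher and 6.03% in either direction. An unadjusted limma p under 0.05 was reached by 5 members at 10, 3 at 30 and 10 at 100 mg/kg/day. The share of all genes at that unadjusted level was not computed, so nothing is drawn from these counts. After 336 h 0 of 31 were called at 20 mg/kg/day (4.3%), with 2 at an unadjusted p under 0.05, again without a share of all genes. At 100 mg/kg/day 2 fell (5% of all genes lower, 9.98% in either direction), Dnaja4 and Hspa1a. Without replicate 1 of that group 5 were called, Dnaja4, Hspa1a and Hspb1 lower and the ER genes Pdia3 and Pdia6 higher, against 4.97% of all genes higher in the fit with every array. Without replicate 4 it was 4 lower, Hspa1a, Hsp90ab1, Hsph1 and Dnaja1. At 30 mg/kg/day, in study 3, 4 rose (4.97% higher, 10.9% in either direction), and 2 were called without replicate 3 of the treated group. The counts are read against these shares, and nothing is drawn from a count near its share.

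With R2, 4 of 16 cytosolic genes rose (Hspb1, Dnajb1, Cct3, Hsp90ab1) and 0 fell, 3 of 11 ER genes fell (Hyou1, Pdia3, Pdia6) and 0 rose, and 1 of 4 mitochondrial genes fell (Hspe1). Of all tested genes 6.62% were called higher and 8.81% lower, or 15.4% together. The median log2 fold change was 0.27 over the cytosolic and -0.26 over the ER genes, beside -0.07 over all tested genes. Without R2 replicates 1 and 2, and likewise without vehicle replicate 1, 4 members were called in place of 8: Hspb1, Cct3 and Hsp90ab1 higher and Hspe1 lower. Dnajb1, Hyou1, Pdia3 and Pdia6 were lost in both, which left 0 of 11 ER genes called. The share of all genes was then 5% higher and 5.19% lower without the 2 R2 arrays, and 5.89% and 7% without the vehicle array. The cytosolic and ER medians were 0.28 and -0.35 without the 2 R2 arrays and 0.33 and -0.20 without the vehicle array. After R1 at 100 mg/kg/day for 24 h the medians were 0.34 for cytosolic and -0.32 for ER genes, beside -0.05 over all genes. After 336 h at that dose they were -0.40 and -0.02, beside -0.02.

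Markers of liver cell types were called in several of these groups. Of all tested genes, 15.4% were called with R2 in either direction. The share was 1.03% and 6.03% with R1 at 10 and 100 mg/kg/day after 24 h. It was 4.3%, 9.98% and 10.9% with R1 at 20, 100 and 30 mg/kg/day after 336 h. Of 9 hepatocyte markers, 2 were lower with R2, 1 was lower with R1 at 100 mg/kg/day after 24 h and at 20 after 336 h, 3 were lower and 1 higher at 100 mg/kg/day after 336 h, and 2 were lower and 1 higher at 30 after 336 h. Their mean log2 level was 11.57 ± 0.13 (SD, n = 5) with R2 and 12.02 ± 0.08 (n = 4) in its vehicle. It was 11.56 ± 0.30 (n = 4) with R1 at 100 mg/kg/day after 336 h and 12.06 ± 0.05 (n = 4) in that vehicle. The median log2 fold change of these markers was -0.20 with R2 and -0.34 in that R1 group, beside -0.07 and -0.02 over all genes. Of the 4 bile duct markers tested, 2 were higher with R2 and in each of the 3 R1 groups at 336 h, and 1 at 100 mg/kg/day after 24 h. Their mean log2 level was 5.78 ± 0.30 (SD, n = 5) with R2 and 4.93 ± 0.34 (n = 4) in its vehicle. Both red cell markers were lower with R1 at 30 mg/kg/day after 336 h, at 8.30 ± 0.50 (n = 4) against 9.26 ± 0.40 (n = 5). Of 5 Kupffer cell and macrophage markers, 1 was lower at 20, 2 were lower and 1 higher at 100, and 1 was lower at 30 mg/kg/day, all after 336 h. Of 7 stellate cell and fibroblast markers, 2 were lower with R1 at 30 mg/kg/day after 336 h and 1 with R2. Of 3 endothelial markers 1 was lower with R1 at 100 and at 30 mg/kg/day after 336 h, and of 3 mast cell markers 1 was higher at 10 and 100 mg/kg/day after 24 h. Neutrophil and T and NK cell markers gave no call. Of the 8 clock genes tested, 1 rose (Nr1d2 1.05) and 2 fell with R2 (Dbp -1.50, Per2 -1.35). With R1 at 100 mg/kg/day after 336 h 1 rose (Nr1d1 1.54) and 1 fell (Bmal1 -1.69). At 30 mg/kg/day after 336 h 1 fell (Per2 -1.16), and the remaining groups gave no clock gene call. The part of these in the chaperone results was not tested.

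**Figure D4:**
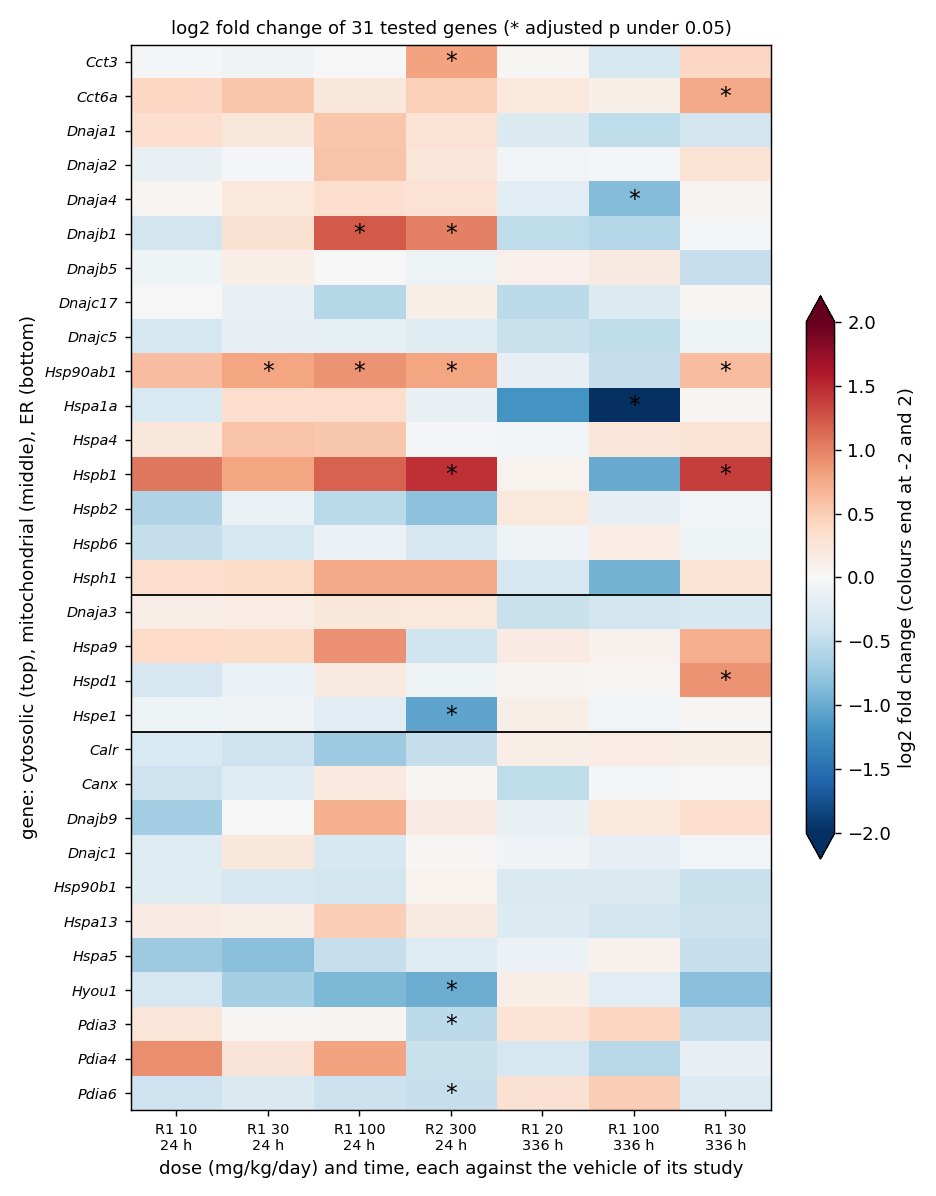
Log2 fold change against the vehicle of the same study for the 31 tested genes (rows, cytosolic at the top, mitochondrial in the middle, ER at the bottom) in 7 treated groups (columns, dose in mg/kg/day and time in h). Asterisks mark an adjusted p under 0.05. With R2 the cytosolic rows hold 4 called rises and the ER rows 3 called falls, and the ER rows hold no called rise in any column. The 3 falls and the rise of Dnajb1 were not called without R2 replicates 1 and 2 or without vehicle replicate 1.

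Genes that work with the chaperones were read from 2 lists. Of the cochaperones and heat shock factors, 12 of 31 listed genes were tested. With R1 at 100 mg/kg/day after 24 h 2 rose and 0 fell: Stip1, the HOP adaptor between HSP70 and HSP90, (1.20 ± 0.25, adjusted p = 0.00129), and Chordc1, an HSP90 cochaperone (1.01 ± 0.32, adjusted p = 0.0447), where 3.19% of all genes rose. With R2, Stip1 (1.11 ± 0.21, adjusted p = 0.00012) and St13, the HSP70-interacting protein HIP (0.66 ± 0.18, adjusted p = 0.00649), rose and Cryaa, a small heat shock protein, fell (-0.89 ± 0.30, adjusted p = 0.0341), against 6.62% of all genes higher and 8.81% lower. Without R2 replicates 1 and 2, Stip1 (0.93, adjusted p = 0.00571) and Cryaa (-1.20, adjusted p = 0.00448) were still called and St13 was not (0.45, adjusted p = 0.148). With R1 at 100 mg/kg/day after 336 h Fkbp4, an HSP90-binding immunophilin, fell (-0.996 ± 0.23, adjusted p = 0.0019), where 5% of all genes were lower. The other 4 groups gave no call. The list's median change was -0.03 at 100 mg/kg/day after 24 h and 0.01 with R2, beside -0.05 and -0.07 over all genes, and -0.11 without R2 replicates 1 and 2, beside -0.04.

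Of the unfolded protein response and ER folding list, 18 of 47 genes were tested. With R2, 5 rose and 0 fell: Trib3 (1.75 ± 0.45, adjusted p = 0.00442), Asns (0.89 ± 0.22, adjusted p = 0.00315) and Atf3 (0.83 ± 0.29, adjusted p = 0.0424), which are targets of the eIF2α and ATF4 branch, the segregase Vcp (0.80 ± 0.17, adjusted p = 0.000749), and the translation initiation factor Eif2s1 (0.47 ± 0.15, adjusted p = 0.0216), against 6.62% of all genes higher. Ddit3 (0.16 ± 0.44, adjusted p = 0.864), Ppp1r15a (0.61 ± 0.24, adjusted p = 0.0834) and Eif2ak3 (0.09 ± 0.28, adjusted p = 0.885) of the same list were not called. The branch as a whole was not tested. Without R2 replicates 1 and 2, Trib3 (1.88, adjusted p = 0.0125), Asns (0.84, adjusted p = 0.0222) and Atf3 (1.08, adjusted p = 0.0236) were still called, and Vcp (0.48, adjusted p = 0.0589) and Eif2s1 (0.41, adjusted p = 0.113) were not. In that fit 2 ER folding genes of the list were called lower, Erp29 (-1.11, adjusted p = 0.000126) and Ppib (-0.78, adjusted p = 0.0147), which were -0.45 (adjusted p = 0.267) and -0.50 (adjusted p = 0.0968) with every array. Without vehicle replicate 1 the Atf3 call was lost (0.68, adjusted p = 0.160). The list's median was -0.00459 with every array and 0.22 without R2 replicates 1 and 2. Hyou1, Pdia3 and Pdia6 were called lower in this same R2 group with every array. Without replicates 1 and 2 their estimates were -0.99, -0.59 and -0.54, with no call. With R1 at 100 mg/kg/day after 24 h 4 fell and 0 rose: Ssr3 (-1.31 ± 0.30, adjusted p = 0.00273) and Ssr4 (-0.64 ± 0.19, adjusted p = 0.0333) of the translocon-associated complex, the prolyl isomerase Ppib (-0.83 ± 0.25, adjusted p = 0.0373) and the ER oxidase Ero1b (-1.04 ± 0.30, adjusted p = 0.0227), where 2.84% of all genes were lower. Sec61b, a subunit of the translocon channel, rose at both doses of study 2 (0.67 ± 0.17, adjusted p = 0.0137 and 0.89 ± 0.18, adjusted p = 0.00043), the only call of the list at either dose, against 2.51% of all genes higher at 20 and 4.97% at 100 mg/kg/day. With R1 at 30 mg/kg/day Ppp1r15a rose after 24 h (1.07 ± 0.30, adjusted p = 0.0475), against 1.14% of all genes higher. At that dose Eif2s1 rose after 336 h (0.45 ± 0.15, adjusted p = 0.0376), against 4.97%. In each of these 2 groups 0 fell, and at 10 mg/kg/day 0 were called, against 1.03% in either direction. The list's median change was -0.11 and 0.21 at 100 mg/kg/day after 24 h and 336 h, beside -0.05 and -0.02 over all genes.

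R1 at 100 mg/kg/day was given for 24 h in study 1 and for 336 h in study 2, so the difference between the 2 responses also includes the difference between studies. It was called for 8 of 31 genes, against 5.11% of all tested genes, 2.6% higher and 2.51% lower. The cytosolic genes Hspa1a (-2.87 ± 0.78, adjusted p = 0.0174), Hspb1 (-2.19 ± 0.53, adjusted p = 0.00678), Dnajb1 (-1.81 ± 0.48, adjusted p = 0.0139), Hsp90ab1 (-1.38 ± 0.29, adjusted p = 0.00174), Dnaja4 (-1.21 ± 0.37, adjusted p = 0.0427) and Dnaja1 (-1.07 ± 0.30, adjusted p = 0.0231) had a lower log2 fold change after 336 h than after 24 h. So did the ER gene Pdia4 (-1.36 ± 0.38, adjusted p = 0.0208), and Pdia6 had a higher one (0.92 ± 0.26, adjusted p = 0.0236). All 4 probe sets of Hsp90ab1 were called in this comparison. Hsph1 missed the threshold (-1.71 ± 0.54, adjusted p = 0.0506). Among the cochaperones Stip1 was lower (-1.49 ± 0.34, adjusted p = 0.00348). The list of ER folding genes had 4 called higher (Ssr3, Ppib, Ssr4, Sec61b) and 0 lower.

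Some of these differences rest on single arrays. Without study 1 vehicle replicate 2 or R1 replicate 1 of that study 4 genes were called, and without study 2 vehicle replicate 2 there were 5. The calls of Hspb1, Dnajb1 and Hsp90ab1 held with each array of the compared groups left out in turn, whereas those of Hspa1a, Dnaja4, Dnaja1, Pdia4 and Pdia6 were each lost in at least 3 such fits (adjusted p up to 0.106, 0.128, 0.179, 0.113 and 0.0752). Hspa1a, Hspb1, Hsph1 and Dnajb1 were higher in the vehicle of study 2 than in that of study 3, as given below. Every group mean of Hspa1a in study 1 lay below the intensity filter. For R1 at 30 mg/kg/day, given for 24 h in study 1 and 336 h in study 3, the difference was called for 0 of 31 genes (0.946% of all). An unadjusted limma p under 0.05 was reached by 2, and the share of all genes at that level was not computed. For Hsp90ab1 it was -0.17 ± 0.28 (adjusted p = 0.906), and for Hspd1 1.04 ± 0.34 (adjusted p = 0.192).

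**Figure D5:**
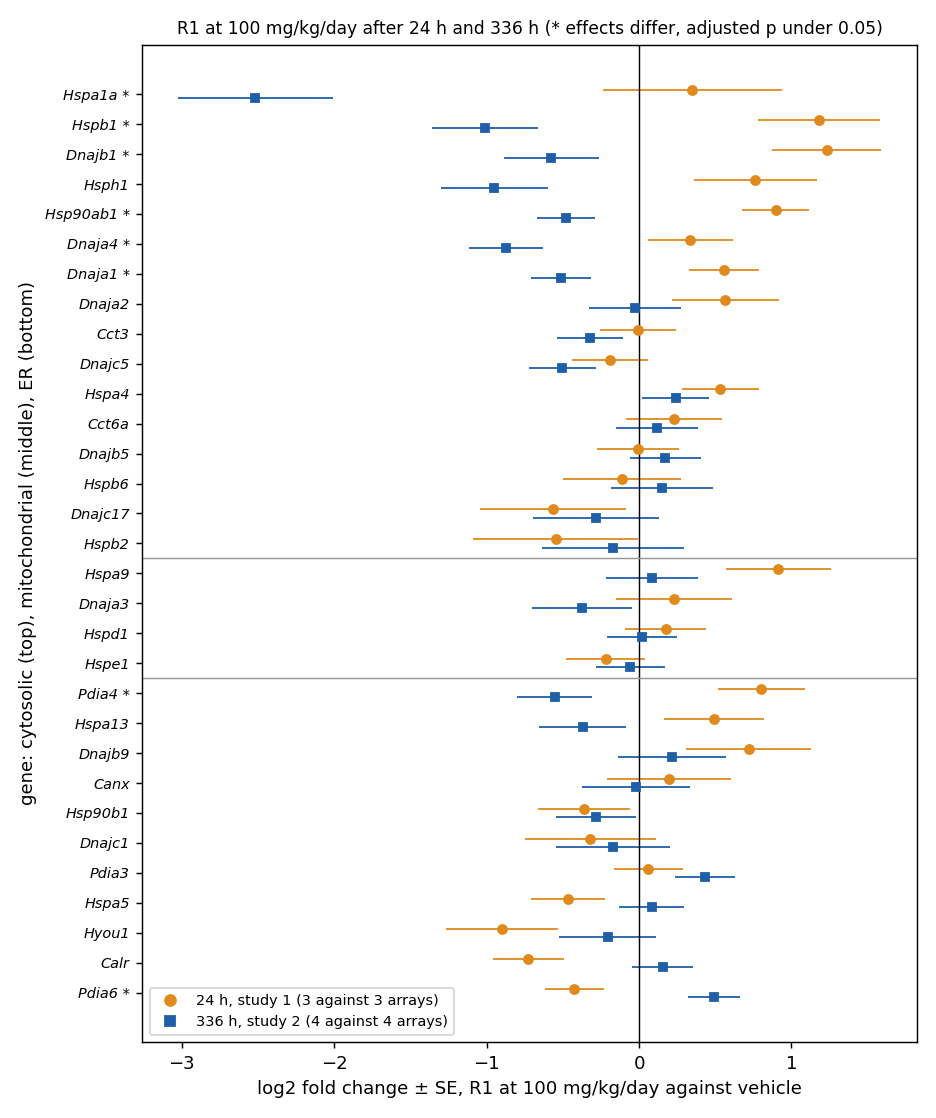
Log2 fold change with its SE for R1 at 100 mg/kg/day against vehicle after 24 h (orange, study 1) and 336 h (blue, study 2) for the 31 tested genes, by compartment. Asterisks mark genes whose 2 responses differ at an adjusted p under 0.05. Hspb1, Dnajb1, Hsp90ab1, Dnaja4, Dnaja1 and Hspa1a lie right of 0 after 24 h and left of it after 336 h. Against vehicle only Dnajb1 and Hsp90ab1 were called after 24 h and only Dnaja4 and Hspa1a after 336 h, so no gene was called at both times.

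Within a study, R1 at 100 mg/kg/day was also set against the lowest dose. After 24 h 2 of 31 genes were higher at 100 than at 10 mg/kg/day (2.11% of all genes higher, 4.08% in either direction): Dnajb1 (1.60 ± 0.34, adjusted p = 0.00243), with all high-dose arrays above all low-dose arrays, and Dnajb9 (1.41 ± 0.38, adjusted p = 0.0239), the ER J protein ERdj4, whose arrays overlap (14.1, 12.6, 21.9 and 46.4 and 67.2, 34.6 and 94.6). The Dnajb9 call was lost with study 1 fitted alone (adjusted p = 0.0800) and without replicate 1 or 2 at 10 mg/kg/day or replicate 1 or 3 at 100 (adjusted p from 0.103 to 0.191). After 336 h 1 gene was lower at 100 than at 20 mg/kg/day (1.81% of all genes lower, 3.84% in either direction), Hspb1 (-1.09 ± 0.33, adjusted p = 0.048). This call was lost in 6 of the 9 fits that left out 1 array (adjusted p up to 0.294), and under 7 other settings, among them the smaller offset, cyclic loess and the replicate block (adjusted p = 0.0513, 0.0613 and 0.0902).

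The vehicle livers differed between studies of the same length. At 336 h 9 of 31 genes differed between the vehicles of studies 3 and 2, against 16.7% of all tested genes, 8.68% higher and 8.06% lower. Cytosolic Hspa1a (-2.91 ± 0.48, adjusted p = 1.72e-05), Hspb1 (-2.30 ± 0.33, adjusted p = 1.13e-06), Hsph1 (-1.30 ± 0.33, adjusted p = 0.00417), Dnajb1 (-0.88 ± 0.30, adjusted p = 0.0314) and Cct3 (-0.61 ± 0.20, adjusted p = 0.0308) and the ER gene Hspa13 (-1.05 ± 0.27, adjusted p = 0.00397) were lower in study 3. Hspa1a passed the intensity filter through study 2 groups alone. ER Pdia3 (0.94 ± 0.19, adjusted p = 0.000195), Pdia6 (0.74 ± 0.16, adjusted p = 0.000683) and Calr (0.56 ± 0.19, adjusted p = 0.0365) were higher. The calls of Calr, Cct3 and Dnajb1 were lost in several fits that left out 1 vehicle array (adjusted p up to 0.130, 0.106 and 0.119). Of the 11 immediate early genes tested, 2 were also lower in study 3 vehicle and 0 higher. These were Egr1 (-3.49 ± 0.63, adjusted p = 6.67e-05) and Klf6 (-1.49 ± 0.34, adjusted p = 0.00116). The list's median was -0.04 beside 0.04 over all genes, and the part of these genes was not tested.

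At 24 h 3 of 31 genes differed between the vehicles of studies 4 and 1 (2.3% of all genes higher, 4.68% in either direction), all higher in study 4. Cct6a was 25.9, 15.4 and 17.1 in study 1 and 184, 130.1, 152 and 71.8 in study 4 (2.57 ± 0.29, adjusted p = 9.74e-08). The treated arrays of study 1 were as low, at 23.2 to 30.5, 26.0 to 32.4 and 12.4 to 35.7 for the 3 doses, whereas no array of the other studies was below 71.8. Hspa9 was 61.1, 37.1 and 88.0 in study 1 and 328, 231, 186 and 146 in study 4 (1.81 ± 0.32, adjusted p = 0.000237). Dnaja1 was 258, 275 and 279 and 614, 533, 400.2 and 492 (0.89 ± 0.21, adjusted p = 0.00735), but a mean over its probe sets differed by 0.37 (adjusted p = 0.441). Fold changes against vehicle were therefore taken within a study.

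Of the 31 tested genes, 19 gave no call against vehicle in any of the 7 groups. They include Hspa5, Hsp90b1, Calr, Canx, Pdia4, Hsph1 and Dnaja1, described above, and 12 others: the cytosolic Hspa4, Hspb2, Hspb6, Dnaja2, Dnajb5, Dnajc5 and Dnajc17, the mitochondrial Hspa9 and Dnaja3, and the ER genes Hspa13, Dnajb9 and Dnajc1. A second probe set of Dnaja2 was called higher with R1 at 100 mg/kg/day after 24 h (1.16 ± 0.29, adjusted p = 0.00777), whereas the representative set gave 0.57 ± 0.35 (adjusted p = 0.445).

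The doses of R1 and R2 differ, so the 2 compounds are set side by side without a test. After 24 h R1 at 100 mg/kg/day and R2 at 300 mg/kg/day gave 0.90 and 0.79 for Hsp90ab1, 1.23 and 1.01 for Dnajb1, 1.18 and 1.46 for Hspb1, and 0.76 and 0.76 for Hsph1. For the ER genes they gave -0.90 and -0.99 for Hyou1, -0.73 and -0.48 for Calr, and 0.80 and -0.45 for Pdia4. They gave 0.06 and -0.53 for Pdia3 and -0.42 and -0.45 for Pdia6. Hspa5 and Hsp90b1, called with neither compound, are described above. For Cct3 the values were -0.01 and 0.81, and for Hspe1 -0.22 and -1.05. Of these, only Hsp90ab1 and Dnajb1 were called with R1. With R2 Hsp90ab1, Dnajb1, Hspb1, Hyou1, Pdia3, Pdia6, Cct3 and Hspe1 were called. Without R2 replicates 1 and 2 the R2 values were 0.80, 0.85, 1.15 and 0.54 for Hsp90ab1, Dnajb1, Hspb1 and Hsph1. They were -0.99, -0.32, -0.49, -0.59 and -0.54 for Hyou1, Calr, Pdia4, Pdia3 and Pdia6, and 0.76 and -0.49 for Cct3 and Hspe1.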

How the data were processed

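Intensities of 44 Affymetrix rat arrays were used as deposited by the authors. Per the submitters' processing notes they are MAS5 values, with no version given. The sorted values were identical on all 44 arrays, as quantile normalization leaves them, although the labels' protocols do not state that step; such scaling hides any change shared by all genes. The 59 control probe sets of the 8799 on the array were dropped. Of the 8740 kept, 7017 had 1 gene symbol, 297 several and 1426 none in the platform annotation, which can be old. All 35 member symbols were current in RefSeq.

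From these values log2(intensity + 2.89) was computed, the offset being percentile 20 of all values. Probe sets whose highest group mean was at least 9.17 (percentile 40) were tested, 6361 in all. One limma fit (limma 3.58.1, R 4.3.3, lmFit and eBayes with a mean-variance trend) held a mean for each of 11 groups, with 33 residual degrees of freedom. P-values were adjusted by Benjamini-Hochberg over all tested probe sets within a comparison. The fit was tested on simulated data.

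Values per array, group means or ranges are given for 13 core chaperones and for other members called against vehicle. The plan was to name list genes where called, up to 4 per list and comparison. Most called immediate early genes, and some list genes called outside the comparisons with vehicle, are not named. Hspa9, Hspa13, Dnaja2, Dnajb9, Eif2s1 and Erp29 were named after their values were seen. The members and lists were chosen with earlier results of these data known. Alternatives changed the offset, filter, normalization, probe set rule, variance model, array weights, samples in the fit and replicate block, and left out each array in turn. Leaving out R2 replicates 1 and 2 together was chosen after seeing the data. The number of arrays limits the precision, and pairs of arrays within groups had correlations from 0.924 to 0.974. Promoter sequences are RefSeq's (GRCr8), used for names and sequences only, since the arrays carry no coordinates.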

Additional observations from a re-analysis of the deposited data

Results flagged for a closer look

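In 17 of 152 groups of member values 1 array lay far from the rest by Dixon's test on intensities without a log scale. Groups of 3 arrays were not tested. For normal, independent values about 1 in 20 groups would do so. Intensities need not be normal and the genes share arrays, so the count is not read as an excess. High arrays were replicate 2 of R1 at 10 mg/kg/day after 24 h for Hspa1a (9.53) and Cct3 (161) and replicate 1 of that group for Hyou1 (203). Others were replicate 4 of R1 at 100 mg/kg/day after 336 h for Hspa1a (9.12), replicate 3 of R1 at 30 mg/kg/day after 336 h for Hsp90ab1 (2790.3), and replicate 1 of study 4 vehicle for Hsp90ab1 (2385). Study 3 vehicle held high values of Hspe1 (1490.2, replicate 4) and Hsp90b1 (402, replicate 2), study 2 vehicle of Hspb1 (522, replicate 3), and the R2 group of Cct6a (229, replicate 3). Low arrays were replicate 3 of R1 at 20 mg/kg/day after 336 h for Hspa5 (265) and Canx (71.7) and replicate 5 of that group for Cct6a (112). The other low values were Canx in replicate 2 of R1 at 30 mg/kg/day after 336 h (193), Dnajb1 in R2 replicate 3 (65.8), Dnaja4 in replicate 4 of R1 at 100 mg/kg/day after 336 h (5.06), and Cct6a in study 2 vehicle replicate 3 (139).

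The log2 response to R1 at 100 mg/kg/day differed between 336 h and 24 h by limma's interaction test for 8 genes. The differences were -2.87 for Hspa1a, -2.19 for Hspb1, -1.81 for Dnajb1, -1.38 for Hsp90ab1, -1.36 for Pdia4, -1.21 for Dnaja4, -1.07 for Dnaja1 and 0.92 for Pdia6. Duration and study cannot be told apart in this comparison.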

How the results depend on the processing

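Of 40 called gene values, 17 kept direction and call under every alternative, as did the absence of a call in 93 of 116 others. One value reversed, Calr with R1 at 30 mg/kg/day after 336 h, at -0.68 with any probe set counted. Counts of called members moved by over 1.5 times as follows, and the cause was not tested. With each study fitted alone there were 1 for R1 at 10, 0 at 30 and 4 at 100 mg/kg/day after 24 h, 1 for R1 at 100 mg/kg/day after 336 h, 5 for R2, 1 for 100 against 10 and 0 for 100 against 20 mg/kg/day. With array weights there were 2, 2 and 6 for the 3 doses after 24 h and 1 for the difference of the R1 responses at 30 mg/kg/day. Counting any probe set gave 1 at 10 and 5 at 100 mg/kg/day after 24 h and 4 for 100 against 10. The mean of probe sets gave 0 at 30 and 4 at 100 mg/kg/day after 24 h, 5 at 100 after 336 h and 0 for 100 against 20. The stricter filter gave 4 at 100 mg/kg/day at either time. Without the filter or without the variance trend there were 0 for R1 at 30 mg/kg/day after 24 h and for 100 against 20, and the smaller offset and cyclic loess gave 0 for the latter. R2 without replicates 1 and 2 gave 4, an alternative chosen after seeing the data. Leaving out 1 array gave 0 to 1, 0 to 1 and 1 to 2 calls for the 3 doses after 24 h, 2 to 5 for R1 at 100 and 2 to 5 for R1 at 30 mg/kg/day after 336 h, and 4 to 9 for R2. It gave 1 to 2 for 100 against 10, 0 to 2 for 100 against 20, 4 to 9 for the R1 100 responses, and 6 to 8 for the vehicles of studies 3 and 2. Signal over background limits dim members such as Hspa1a, Hspa13 and Dnaja4.

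With the replicate number as a block there were 0 calls for R1 at 30 mg/kg/day after 24 h and 0 for 100 against 20 mg/kg/day. The block ended the calls of Hsp90ab1 and Hspb1 there, of Cct6a with R1 at 30 mg/kg/day after 336 h (0.68, adjusted p = 0.0749) and of Pdia3 and Pdia6 with R2 (adjusted p = 0.0634 for each), and it added Calr with R1 at 100 mg/kg/day after 24 h (-0.73, adjusted p = 0.0332) and with R2 (-0.52, adjusted p = 0.0443). The numbers do not pair the arrays: over 38 pairs of equal number the deviations correlated at a median of 0.036 (-0.0898 to 0.153), against -0.0166 for unequal numbers.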
